A study of Mus musculus with 67 samples.

Results

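The Dlx homeobox family of the mouse, Dlx1 to Dlx6, was followed across forelimb bud development with and without the transcription factor GLI3. The members were taken by gene name from the RNA-seq gene tables, which gave 6 genes out of 46983 gene IDs. RNA had been sequenced from 14 pools of forelimb buds, all on a Swiss Webster background. Whole forelimb buds of embryonic day E9.25 (21 to 23 somites, pre-HH, before Hedgehog signalling begins in the limb) gave 3 WT and 4 Gli3-/- libraries, with about 4 pairs of buds in each. The anterior part of forelimb buds of E10.5 (32 to 35 somites, post-HH) gave 4 WT and 3 Gli3-/- libraries, with 2 pairs in each according to the sample records. Gli3-/- stands for the germline allele Gli3 Xt-J, so that the limb and the tissues around it were mutant alike. Stage and the dissected part of the bud, whole or anterior, change together here and cannot be told apart.

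Dlx genes encode homeodomain transcription factors related to Distal-less, the fly gene needed for outgrowth of legs. Mammals carry them as pairs of neighbouring genes that are transcribed towards each other and share enhancers. In the early limb bud they are best known from the ectoderm and its apical ectodermal ridge, the thickened rim that keeps the bud growing, and mice that lack both Dlx5 and Dlx6 have split feet. The same genes pattern the pharyngeal arches, and Dlx1 and Dlx2 direct the formation of inhibitory neurons in the forebrain. GLI3, when no Hedgehog signal reaches the cell, is processed to a repressor that holds target genes down in the anterior limb bud.

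The 6 genes lay in 3 such pairs, at the positions given by the tables, which matched the RefSeq genes of the same names in GRCm38.p6 (mm10). On chromosome 2, Dlx1 (ENSMUSG00000041911.3) ran from 71528113 to 71533981 on the plus strand and Dlx2 (ENSMUSG00000023391.8) from 71543408 to 71546754 on the minus strand, 9426 bases apart. On chromosome 6, Dlx6 (ENSMUSG00000029754.13) ran from 6863334 to 6868568 on the plus strand and Dlx5 (ENSMUSG00000029755.10) from 6877805 to 6882085 on the minus strand, 9236 bases apart. On chromosome 11, Dlx3 (ENSMUSG00000001510.8) ran from 95120119 to 95125296 on the plus strand and Dlx4 (ENSMUSG00000020871.8) from 95140447 to 95146263 on the minus strand, with 15150 bases between them. Dlx1, Dlx4 and Dlx6 overlapped a gene on the opposite strand. These were the antisense RNA Dlx1as (at most 2.11 TPM in a library), A730090H04Rik (at most 1.36 TPM) and the non-coding RNA Dlx6os1 (at most 0.686 TPM). Whether reads were assigned by strand is not given in the sources used here, so that values of these 3 members may hold reads of the opposite strand.

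RefSeq promoter sequence of GRCm38.p6 was at hand for 2 of the 6 members, Dlx1 and Dlx2, and for the non-coding genes Dlx6os1 and Dlx6os2. It is shown because homeodomain proteins of the DLX kind bind a core of TAATTA, a sequence that reads the same on both strands. The 250 bases before the start of Dlx2, the highest member, were free of this core, with 66.4% G and C. So were the 250 bases before a start of Dlx1, with 68.0% G and C. That window, chr2:71529195-71529444, lies inside the Dlx1 gene as placed above, not before its first base. A start of Dlx6os1 lay between Dlx6 and Dlx5, and its 250 bases before the start held 2 cores, in capitals below, with 33.2% G and C. This window began 965 bases past the end of Dlx6 and ended 8021 bases before the near end of Dlx5. It lies inside the Dlx6os1 gene, placed at 6820189 to 6871592, not before its first base. The window of another Dlx6os1 start, chr6:6861684-6861933, lies inside it too and held 1 core. The window of Dlx6os2, chr6:6865151-6865400, was free of the core. Of 32851 promoters of the same length, 4.84% held a TAATTA. The GLI core GACCACCC, searched on both strands, was in none of these windows and in 0.703% of all promoters.
Dlx2, chr2:71546755-71547004, minus strand: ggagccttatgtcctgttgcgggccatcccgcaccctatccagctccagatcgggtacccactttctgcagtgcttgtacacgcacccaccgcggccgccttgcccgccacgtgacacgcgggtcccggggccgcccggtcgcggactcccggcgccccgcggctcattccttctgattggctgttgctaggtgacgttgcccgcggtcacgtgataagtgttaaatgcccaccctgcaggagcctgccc
Dlx6os1, chr6:6869534-6869783, minus strand: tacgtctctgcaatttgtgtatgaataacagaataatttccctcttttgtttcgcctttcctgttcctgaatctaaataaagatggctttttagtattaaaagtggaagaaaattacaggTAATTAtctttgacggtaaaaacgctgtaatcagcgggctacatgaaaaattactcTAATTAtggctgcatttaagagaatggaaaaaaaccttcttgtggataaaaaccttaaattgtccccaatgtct

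The values used are TPM, in which the reads of a gene are divided by its length and every library is brought to 1 common total, so that levels of different genes can be set side by side. Estimated depth was 38.1 to 56.8 M reads, and 1 TPM corresponded to 20.7 to 29.3 reads per kilobase. Gli3 itself fell at E10.5 from a mean of 81.6 to 40.0 TPM (log2 difference -1.01, SE 0.08, limma adjusted p = 0.000335). At E9.25 it did not pass (log2 difference -0.74, SE 0.32, limma adjusted p = 0.223), and the library labelled WT replicate 2, with 15.8 TPM, lay inside the range of the Gli3-/- libraries. All 18 ectoderm markers and all 9 limb mesenchyme markers were found in every library. Of markers of other sources of Dlx RNA, the neural genes Sox1, Sox2, Pax6, Olig2, Nkx2-2, Neurog1, Neurog2 and Elavl3 stayed at or under 0.512 TPM, and the neural crest genes Sox10 and Foxd3 at or under 0.994 TPM, while Tubb3 (up to 14.9 TPM) and Erbb3 (up to 6.09 TPM) were higher. The pharyngeal arch genes Barx1 and Lhx8 reached at most 1.06 and 0.355 TPM, but Hand1, Gsc and Dlk1, which are not particular to the arches, reached 79.1, 34.7 and 516.0 TPM.

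All 6 Dlx genes were detected at modest levels in all 14 libraries. Dlx2 was the highest member in 13 of 14 libraries, and Dlx5 stood above it in E10.5 WT replicate 2. At E9.25 the order was Dlx2, then Dlx3, then Dlx5 in all 7 libraries of both genotypes. In E9.25 WT buds the mean levels were 13.3 ± 3.61 TPM (SD, n = 3) for Dlx2, 10.7 ± 2.48 for Dlx3 and 9.23 ± 1.92 for Dlx5. The spreads of these neighbours overlapped, although their order was the same within each library. Below them came Dlx1 (3.38 ± 0.970), Dlx4 (2.07 ± 0.436) and Dlx6 (1.65 ± 0.758), and Dlx4 and Dlx6 did not differ beyond their spread. At E10.5 Dlx4 was the lowest member in all 7 libraries. Dlx3 stood above Dlx1 in all 4 E10.5 WT libraries, whereas Dlx1 stood above Dlx3 in all 3 E10.5 Gli3-/- libraries.

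**Figure D1:**
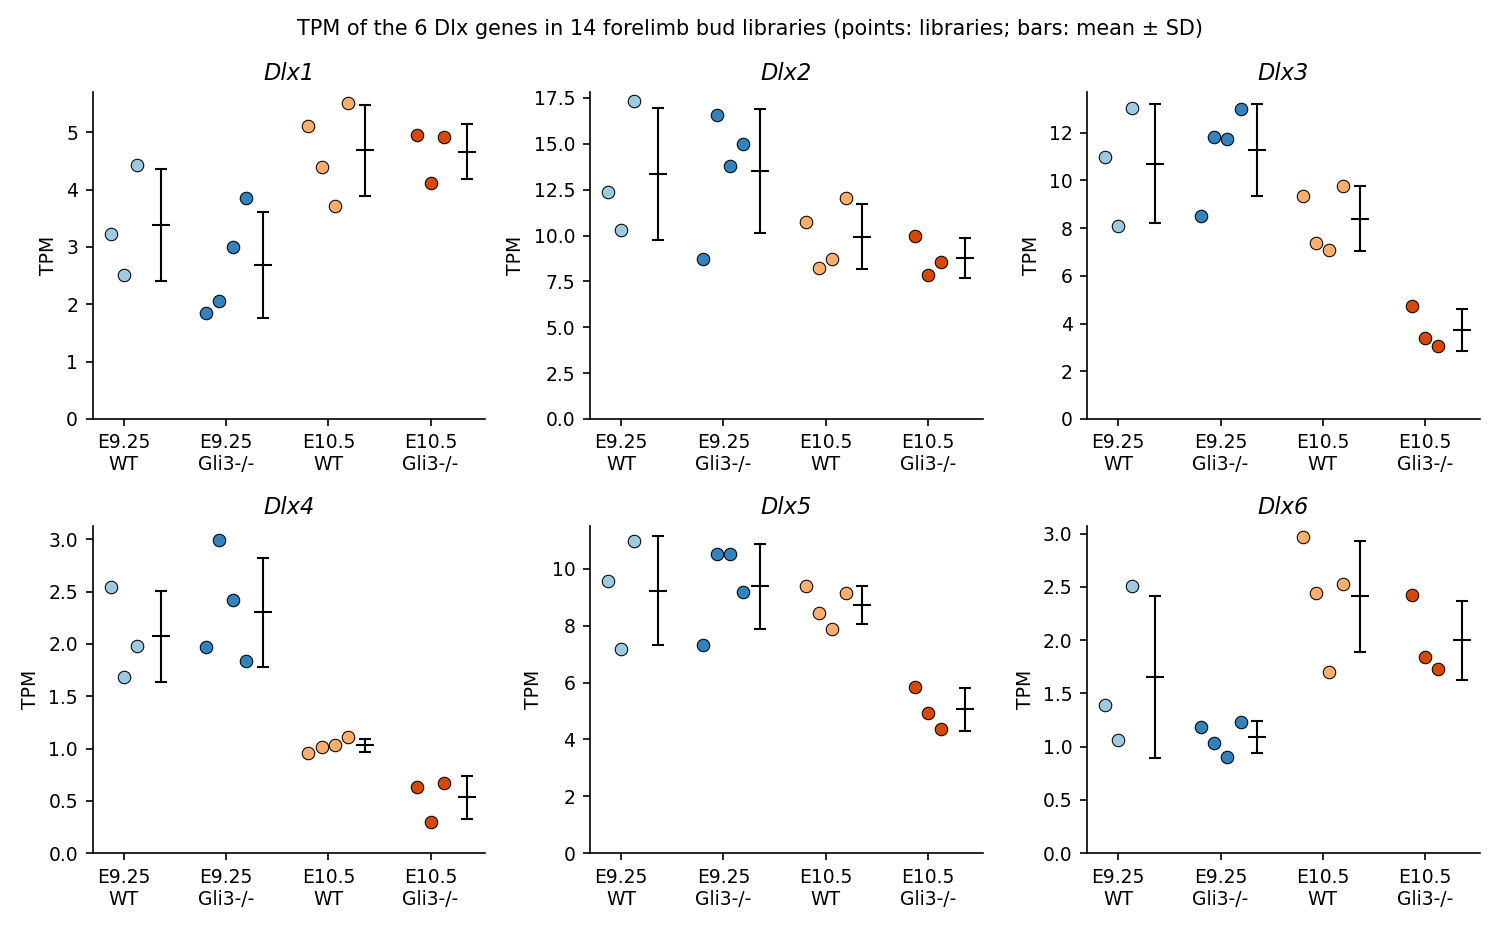
TPM (y axis, from 0) of each Dlx gene in the 4 groups of forelimb bud libraries (x axis), with 1 point per library and the mean ± SD beside it. Dlx3 and Dlx5 of the 3 E10.5 Gli3-/- libraries lie below those of all 4 E10.5 WT libraries, while Dlx1, Dlx2 and Dlx6 overlap between the genotypes at both stages.

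The comparison of WT and Gli3-/- anterior buds at E10.5 asks how the Dlx genes stand where GLI3 repression is normally strongest. With loss of Gli3, Dlx3 and Dlx5 fell, and no member rose. Dlx3, best known for its roles in skin, placenta, teeth and bone, stood at 9.37, 7.37, 7.10 and 9.76 TPM in the 4 WT libraries and at 4.75, 3.40 and 3.06 TPM in the 3 Gli3-/- libraries. The lowest WT library was well above the highest Gli3-/- library, and the group means were 8.40 ± 1.36 and 3.73 ± 0.893 TPM. The log2 difference was -0.99 on the log2(TPM + 1) scale, which understates changes of low genes (SE 0.16, 95% interval -1.36 to -0.63, limma adjusted p = 0.00921). These are whole tissue pieces, so that fewer cells of a kind and less RNA per cell cannot be told apart.

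Dlx5, which with Dlx6 serves outgrowth of the central digits and bone formation, stood at 9.40, 8.46, 7.89 and 9.15 TPM in WT and at 5.86, 4.94 and 4.37 TPM in Gli3-/- anterior buds. Again no Gli3-/- library reached the lowest WT library. The means were 8.73 ± 0.681 and 5.06 ± 0.750 TPM, a log2 difference of -0.69 (SE 0.12, 95% interval -0.96 to -0.42, limma adjusted p = 0.0122). The 2 of 6 members called lower compare with 2.93% of the 15654 genes tested (4.77% called in either direction). The call of Dlx5 was lost without Gli3-/- replicate 3 (log2 difference -0.61, limma adjusted p = 0.0596), which left 1 member called, while Dlx3 passed without any 1 of the 7 libraries (limma adjusted p at most 0.042).

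Dlx4, the partner of Dlx3 on chromosome 11 and the least studied member, was low in both genotypes. Its WT libraries lay at 0.959, 1.02, 1.04 and 1.11 TPM and its Gli3-/- libraries at 0.634, 0.299 and 0.670 TPM. The groups did not overlap, but the log2 difference of -0.41 did not pass (SE 0.15, limma adjusted p = 0.166). Dlx4 entered the test only through the WT libraries, 3 of which reached the minimum of 1 TPM, so that its lack of overlap is no separate support. Dlx4 left aside, 2 members, Dlx3 and Dlx5, were lower without overlap, as were 11.5% of all genes tested.

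The other members gave overlapping groups. Dlx1 stood at 5.12, 4.39, 3.71 and 5.51 TPM in WT and at 4.96, 4.11 and 4.91 TPM in Gli3-/- anterior buds. Its Gli3-/- values fell inside the WT range, with a log2 difference of 0.00 and a 95% interval of -0.32 to 0.32. Dlx2 stood at 10.7, 8.25, 8.75 and 12.03 TPM in WT and at 9.97, 7.84 and 8.53 TPM in Gli3-/- (log2 difference -0.15, 95% interval -0.47 to 0.17). Dlx6, the partner of Dlx5, stood at 2.96, 2.44, 1.70 and 2.53 TPM in WT and at 2.42, 1.84 and 1.73 TPM in Gli3-/- (log2 difference -0.18, 95% interval -0.55 to 0.19, limma adjusted p = 0.606). The intervals of Dlx2 and Dlx6 both still admit a moderate loss, so that the lack of a call does not show equal levels.

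**Figure D2:**
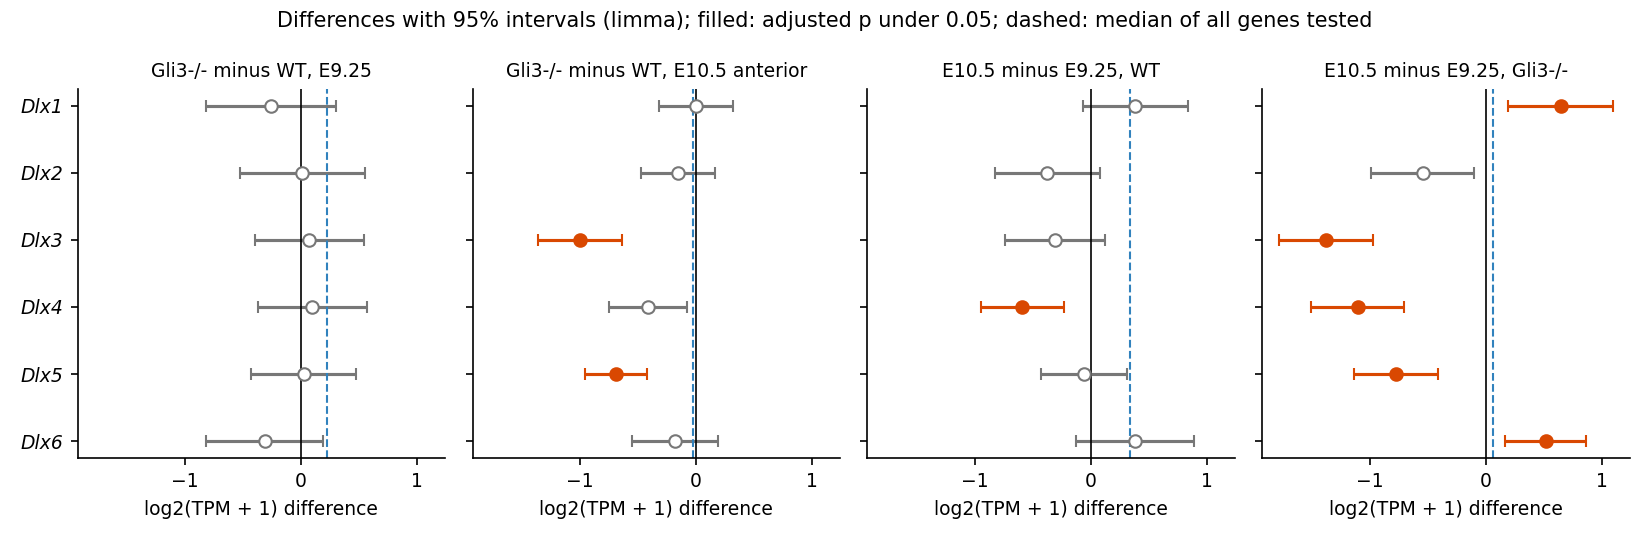
Differences of the 6 Dlx genes in log2(TPM + 1) (x axis) with 95% intervals from limma, in 4 comparisons of 2 groups each. Filled points have a limma adjusted p under 0.05, and the dashed line is the median of all genes tested. Dlx3 and Dlx5 are called lower in E10.5 Gli3-/- buds, both against E10.5 WT and against E9.25 Gli3-/- buds, and no member is called at E9.25.

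Before Hedgehog signalling begins, at E9.25, no member was called with loss of Gli3. None of the 6 members passed limma, and 0.136% of all 14760 genes tested passed. An unadjusted limma p under 0.05 was found for 0 members and for 3247 of all genes tested. Dlx3 stood at 11.0, 8.10 and 13.05 TPM in WT and at 8.50, 11.8, 11.7 and 12.98 TPM in Gli3-/- buds, with a log2 difference of 0.07 (95% interval -0.39 to 0.54). Dlx5 stood at 9.56, 7.17 and 11.0 TPM in WT and at 7.34, 10.51, 10.51 and 9.19 TPM in Gli3-/- buds, with a log2 difference of 0.03 (95% interval -0.43 to 0.48). The genotypes were thoroughly mixed for both genes.

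Dlx2 stood at 12.4, 10.3 and 17.3 TPM in E9.25 WT and at 8.74, 16.6, 13.8 and 15.0 TPM in E9.25 Gli3-/- buds (log2 difference 0.01, limma adjusted p = 0.974). Dlx4 stood at 2.55, 1.69 and 1.98 TPM in WT and at 1.97, 2.99, 2.42 and 1.84 TPM in Gli3-/- (log2 difference 0.10, limma adjusted p = 0.769). Both were as variable within a genotype as between genotypes. Dlx1 stood at 3.22, 2.50 and 4.42 TPM in WT and at 1.84, 2.06, 2.99 and 3.86 TPM in Gli3-/- (log2 difference -0.26, limma adjusted p = 0.511). Dlx6 stood at 1.39, 1.06 and 2.51 TPM in WT and at 1.19, 1.03, 0.902 and 1.23 TPM in Gli3-/- (log2 difference -0.31, limma adjusted p = 0.385). For both genes WT replicate 3 was the highest of the 7 libraries. The median gene tested was 0.23 higher in Gli3-/- than in WT on the log2 scale, and the difference of each member minus this median lay between -0.54 and -0.12. Under quantile, median-of-ratios and FPKM scaling the signs of Dlx2, Dlx3, Dlx4 and Dlx5 turned, with no call. Markers of the flank, next to the limb field, moved with genotype at this stage. Their summed level was 50.4 to 85.4 TPM in WT and 104.5 to 203.0 TPM in Gli3-/- buds, and Osr1, Foxf1 and Gata4, 3 of 8 tested of 9 listed, were higher. Of the 9 limb mesenchyme markers Lhx2 alone was called, and it was lower (45.3 to 11.1 TPM, limma adjusted p = 0.0142). The 18 ectoderm markers summed to 241.6 to 391.1 TPM in WT and 373.4 to 547.1 TPM in Gli3-/- buds, which overlap, and none was called. The 6 endothelium markers summed to 59.3 to 94.9 TPM in WT and 108.0 to 157.0 TPM in Gli3-/- buds, and none was called. The part of these markers in the Dlx values was not tested.

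Whether the effect of Gli3 loss differed between the stages was tested as an interaction in 1 model of all 14 libraries. No member passed, against 2.13% of all 16368 genes tested. Dlx3 came nearest, with a difference between the stages of -1.07 (log2, SE 0.27, 95% interval -1.64 to -0.50, limma adjusted p = 0.0547). For Dlx5 the difference was -0.72 (SE 0.23, limma adjusted p = 0.119) and for Dlx4 -0.51 (SE 0.23, limma adjusted p = 0.225). These 3 members and no other had an unadjusted limma p under 0.05 (0.00127, 0.00691 and 0.0412). So did 3443 of the 16368 genes tested. The median gene tested had a difference of -0.24. Dlx3 passed with eBayes without a trend (limma adjusted p = 0.0472), with weights for library quality (0.0473), and when any 1 of 3 libraries was left out, namely E9.25 WT replicate 1 (limma adjusted p = 0.0389), E9.25 Gli3-/- replicate 1 (0.0312) or E10.5 Gli3-/- replicate 1 (0.0491). Over the 9 settings that kept all libraries, 2 of which passed, the Dlx3 difference ran from -1.24 to -0.70. The limma adjusted p ran from 0.0472 to 0.196 over these settings. Over the 14 libraries left out in turn it ran from 0.0312 to 0.174. A call for Gli3 loss at E10.5 and none at E9.25 is thus not by itself a shown difference between the stages.

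From E9.25 to E10.5, 5 members were called in Gli3-/- buds and 1 in WT buds. The difference between the genotypes is the interaction above, which no member passed. In Gli3-/- buds Dlx3, Dlx4 and Dlx5 fell and Dlx1 and Dlx6 rose. Dlx3 went from a mean of 11.3 ± 1.93 TPM (n = 4) to 3.73 ± 0.893 TPM (n = 3), a log2 difference of -1.38 (SE 0.18, limma adjusted p = 0.000439). Dlx4 went from 2.30 ± 0.522 to 0.534 ± 0.205 TPM (log2 difference -1.10, SE 0.18, limma adjusted p = 0.00155). Dlx5 went from 9.39 ± 1.501 to 5.06 ± 0.750 TPM (log2 difference -0.77, SE 0.16, limma adjusted p = 0.00666). Dlx4 entered this test only through the E9.25 libraries, since 0 of 3 E10.5 libraries reached 1 TPM, so that it had to be lower to be tested at all. With no filter it passed as well (limma adjusted p = 0.00726). The stages of Dlx3 and Dlx5 did not overlap, and both passed in every setting. They compare with 9.17% of the 15434 genes called lower and 13.4% lower without overlap.

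Dlx1 rose in Gli3-/- buds from 2.69 ± 0.926 to 4.66 ± 0.478 TPM (log2 difference 0.65, SE 0.20, limma adjusted p = 0.0406), and Dlx6 from 1.09 ± 0.152 to 2.00 ± 0.373 TPM (log2 difference 0.52, SE 0.16, limma adjusted p = 0.0357). Neither overlapped between the stages, with 15.8% of genes called higher and 22.3% higher without overlap. Both calls were near the threshold and depended on the scaling. The split of 2 members higher and 3 lower became 0 higher and 4 lower with quantile normalization, and 1 higher and 4 lower with median-of-ratios size factors, with FPKM and with library quality weights, the added lower call each time being Dlx2 (limma adjusted p = 0.0111 to 0.0323). With FPKM only 5 members were tested, since Dlx6 did not reach the minimum, so that its call was not lost to scaling there. With no filter Dlx1 did not pass (limma adjusted p = 0.103). With each of the 7 libraries left out in turn, Dlx1 passed in 1 fit and Dlx6 in 2, and 3 members in all passed without E9.25 Gli3-/- replicate 3 or any 1 of the 3 E10.5 libraries. Dlx2 went from 13.5 ± 3.39 to 8.78 ± 1.09 TPM and did not pass (log2 difference -0.54, SE 0.20, limma adjusted p = 0.0747), although its E9.25 replicate 1, with 8.74 TPM, was the only E9.25 library within the E10.5 range. Without that library Dlx2 passed (log2 difference -0.72, limma adjusted p = 0.0049).

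In WT buds Dlx4 alone of the 6 members was called between the stages, lower at E10.5, beside 10.6% of the 15444 genes called lower and 38.1% called higher. It went from 2.07 ± 0.436 TPM (n = 3) to 1.03 ± 0.0617 TPM (n = 4), a log2 difference of -0.59 (SE 0.16, limma adjusted p = 0.0156). Dlx1 went from 3.38 to 4.68 TPM and Dlx6 from 1.65 to 2.41 TPM, with log2 differences of 0.39 each (limma adjusted p = 0.131 and 0.175). Dlx2 went from 13.3 to 9.94 TPM, Dlx3 from 10.7 to 8.40 TPM and Dlx5 from 9.23 to 8.73 TPM, none past the threshold. The median gene tested was 0.34 higher at E10.5, so that relative to it Dlx2 (-0.71), Dlx3 (-0.64), Dlx4 (-0.93) and Dlx5 (-0.40) lay lower and Dlx1 and Dlx6 within 0.05. Scaling therefore decides several calls. With median-of-ratios size factors Dlx2, Dlx3 and Dlx4 were called lower, with quantile normalization Dlx5 as well, and with quantile normalization the differences of Dlx1 and Dlx6 turned to -0.15 and -0.13. Leaving out E9.25 WT replicate 2, which was low for Gli3, gave 3 members called, and leaving out E9.25 WT replicate 3, the highest for Dlx1, Dlx2, Dlx3, Dlx5 and Dlx6, gave 2. Markers moved with stage as well. The summed flank markers went from 104.5 to 203.0 TPM at E9.25 to 33.4 to 64.4 TPM at E10.5 in Gli3-/- buds, with 6 of 8 tested lower and 1 higher, and from 50.4 to 85.4 TPM to 88.4 to 115.0 TPM in WT buds, with 4 of 7 lower and 3 higher. Of the 4 muscle progenitor markers tested, 4 were higher in WT and 3 in Gli3-/-. Of the 18 ectoderm markers 5 were higher and 1 lower in WT and 5 higher and 5 lower in Gli3-/- buds. Krt5 rose, with 13.4 and 44.4 TPM in WT and 13.3 and 62.3 TPM in Gli3-/- buds of E9.25 and E10.5. Krt18 stood at 35.2 and 27.9 TPM in WT and at 103.9 and 23.5 TPM in Gli3-/- buds of these stages. It was called lower in Gli3-/- buds (limma adjusted p = 0.00053) and not in WT. Of the 9 limb mesenchyme markers 4 were higher and 1 lower in WT and 3 higher and 3 lower in Gli3-/- buds. Their part in the Dlx differences was not tested.

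The uneven loss changed the makeup of the family. The summed TPM of the 6 genes was 30.2 to 40.1 in the 4 E10.5 WT libraries and 22.4 to 28.6 in the 3 Gli3-/- libraries, without overlap, and 30.8 to 50.3 and 29.6 to 44.998 in E9.25 WT and Gli3-/- buds. Dlx3 made up 23.1 to 24.4% of the sum in E10.5 WT and 13.1 to 16.6% in E10.5 Gli3-/- buds. In both E9.25 groups Dlx3 held 26.0 to 29.4%. The share of Dlx2 was 25.8 to 30.0% in E10.5 WT and 34.9 to 36.7% in E10.5 Gli3-/- buds, and that of Dlx1 was 12.3 to 13.8% and 17.3 to 21.1%. Since shares add to a fixed total, the larger shares of Dlx1 and Dlx2 go with the loss of Dlx3 and Dlx5, and their own TPM overlapped between the genotypes.

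**Figure D3:**
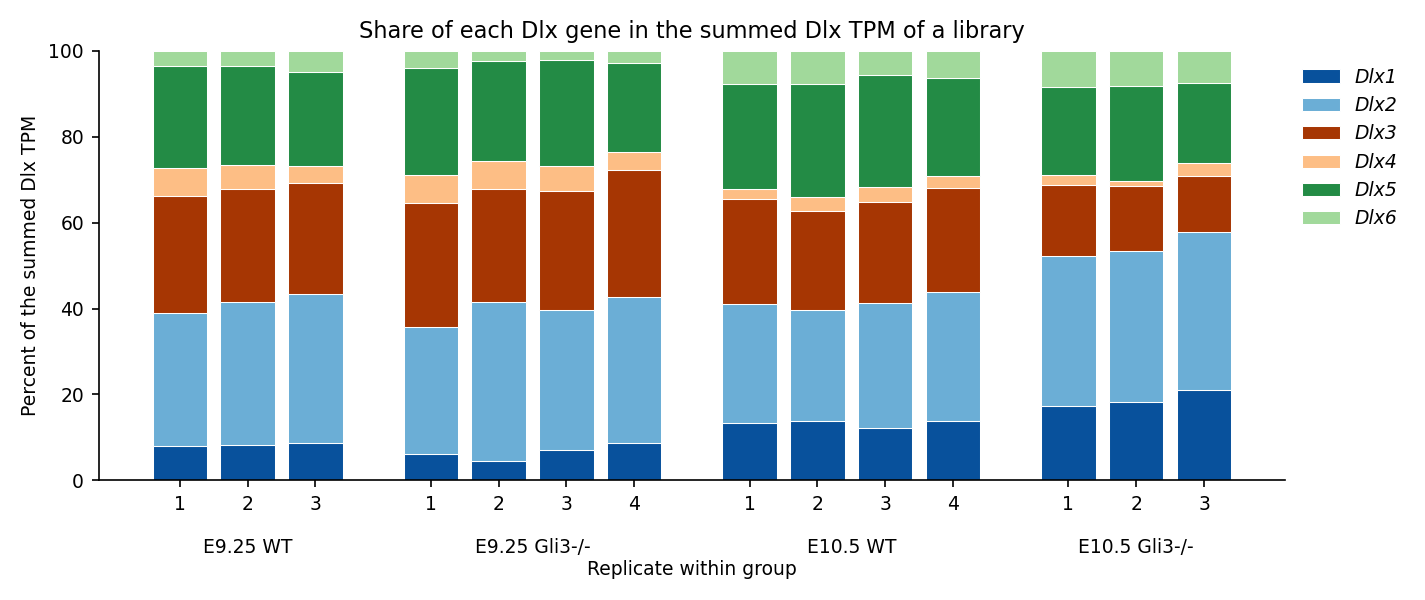
Share of each Dlx gene, in percent of the summed TPM of the 6 genes (y axis), in each of the 14 libraries (1 bar each, numbered by replicate within its group). The Dlx3 share is 13.1 to 16.6% in the 3 E10.5 Gli3-/- libraries and at least 23.1% in each of the other libraries.

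Between the genotypes at E10.5, the ratio within a pair separated the libraries for Dlx6 and Dlx5 and overlapped for both other pairs. The log2 ratio of Dlx6 to Dlx5 was -2.21 to -1.66 in E10.5 WT and -1.42 to -1.27 in E10.5 Gli3-/- buds, so that every Gli3-/- library had relatively more Dlx6. This goes with the loss of Dlx5, since Dlx6 itself overlapped between the genotypes (means 2.41 and 2.00 TPM). At E9.25 the log2 ratio of Dlx6 to Dlx5 was -2.78 to -2.13 in WT and -3.54 to -2.63 in Gli3-/- buds. The log2 ratio of Dlx1 to Dlx2 was -3.01 to -1.94 in the E9.25 libraries and -1.24 to -0.80 in the E10.5 libraries, with no overlap between stages and with overlapping genotypes at each stage. The log2 ratio of Dlx3 to Dlx4 was 2.78 to 3.29 in E10.5 WT and 2.19 to 3.51 in E10.5 Gli3-/- buds, the wider range coming with a Dlx4 level under 1 TPM. These ratios were computed after the levels had been seen and were not tested.

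**Figure D4:**
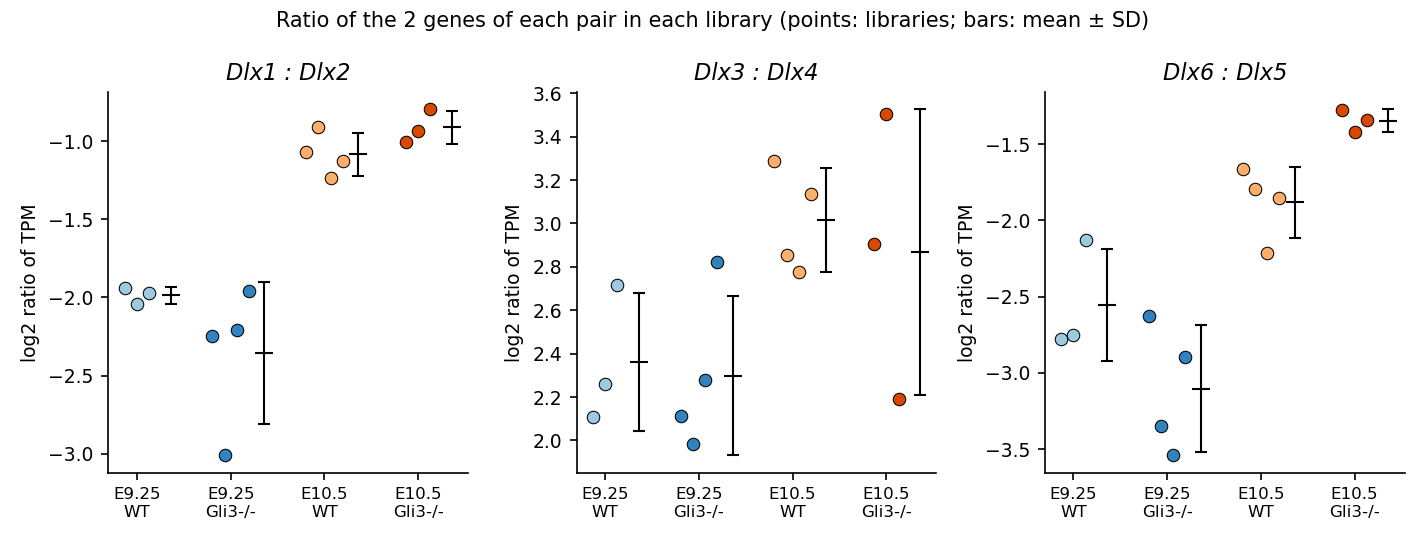
Log2 ratio of TPM (y axis) of Dlx1 to Dlx2, Dlx3 to Dlx4 and Dlx6 to Dlx5 in the 4 groups (x axis), with 1 point per library and the mean ± SD beside it. The Dlx6 to Dlx5 ratio is higher in all 3 E10.5 Gli3-/- libraries than in the E10.5 WT libraries, and the Dlx1 to Dlx2 ratio separates the stages.

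The non-coding neighbours were low. Dlx1as was called higher at E10.5 in both genotypes, in WT from 0.437 ± 0.391 to 1.49 ± 0.484 TPM (log2 difference 0.81, SE 0.25, limma adjusted p = 0.0269) and in Gli3-/- from 0.781 ± 0.440 to 1.79 ± 0.280 TPM (log2 difference 0.68, SE 0.22, limma adjusted p = 0.0467). It entered both tests through the E10.5 libraries, since 0 of 3 WT and 1 of 4 Gli3-/- libraries reached 1 TPM at E9.25, and neither call held with no filter on low TPM (limma adjusted p = 0.055 and 0.0965). With loss of Gli3 at E10.5, Dlx1as showed a log2 difference of 0.19 and did not pass (limma adjusted p = 0.642). Dlx6os1 (ENSMUSG00000090063.5) was below the minimum for testing, with 0.287 to 0.686 TPM in E10.5 WT, 0.199 to 0.325 TPM in E10.5 Gli3-/- and at most 0.222 TPM at E9.25. The second gene ID named Dlx6os1 and Dlx6os2 stayed at or under 0.0766 TPM. Among the 47 gene IDs listed within 250000 bases of a member, 17 were tested at E10.5 and 16 at E9.25, and 0 were called with loss of Gli3 at either stage. Between stages 7 were higher and 2 lower of 16 in WT, led by Samd14, Slc25a12, Pdk2 and Hat1, the last of them lower. In Gli3-/- buds 6 were higher and 3 lower of 16.

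Ectoderm markers, for the tissue in which Dlx genes are best known in the bud, overlapped between the E10.5 genotypes in their sum, while most of them singly lay below 0. The 18 ectoderm markers summed to 290.0 to 430.1 TPM in WT and 305.8 to 383.7 TPM in Gli3-/- anterior buds. None of the 18 was called, 14 lay below 0, and their median log2 difference was -0.28, beside -0.02 for all genes tested and -0.30 for the 6 Dlx genes. The lowest differences were those of the keratin Krt15 (-0.89, limma adjusted p = 0.162) and the epidermal regulator Grhl3 (-0.61, 0.131), and Krt5 had the highest (0.51, 0.145). Named after their values were seen, as are these, the adhesion gene Epcam had means of 40.5 and 43.8 TPM in WT and Gli3-/-, the basal keratin Krt5 44.4 and 62.3 TPM, the epidermal regulator Trp63 21.9 and 16.3 TPM and the ligand Wnt6, nearest to the threshold, 39.0 and 28.0 TPM (log2 difference -0.46, limma adjusted p = 0.0671). The part of these differences in the Dlx values was not tested.

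Ridge genes moved in both directions with loss of Gli3 at E10.5. Of 9 tested, the growth factors Fgf8 (mean 59.1 to 153.2 TPM, log2 difference 1.36, SE 0.12, limma adjusted p = 0.000501), Fgf4 (0.925 to 7.25 TPM, log2 difference 2.08, limma adjusted p = 0.00193) and Fgf17 (0.376 to 1.501 TPM, log2 difference 0.88, limma adjusted p = 0.0289) rose. Fgf4 and Fgf17 reached the minimum for testing through the Gli3-/- libraries, and with no filter Fgf4 passed (limma adjusted p = 0.0243) and Fgf17 did not (0.0654). The Wnt agonist Rspo2 fell (17.1 to 12.2 TPM, log2 difference -0.46, limma adjusted p = 0.0177). The ridge transcription factor genes Sp6 (log2 difference -0.63, limma adjusted p = 0.12) and Sp8 (-0.38, 0.236), the Notch ligand Jag2 (-0.46, 0.0599) and the ligand Wnt3 (-0.52, 0.102), named after their values were seen, did not pass. The growth factor Fgf9 lay above 0 and did not pass either (3.09 to 6.52 TPM, log2 difference 0.90, limma adjusted p = 0.0524). The median over the 9 genes was -0.38. Summed ridge markers were 127.6 to 147.3 TPM in WT and 192.3 to 244.4 TPM in Gli3-/-, and without Fgf8 they were 66.5 to 89.4 TPM and 60.8 to 73.4 TPM. Dlx3 and Dlx5 were thus lower in the libraries in which Fgf8 and Fgf4 were higher. Of the 9 limb mesenchyme markers 7 fell, led by Meis1 (-1.40), Lhx9 (-0.93), Meis2 (-1.25) and Twist1 (-0.65), and Fgf10 rose (1.05). Summed red blood cell markers, 10113 to 13835 TPM in WT and 11944 to 33343 TPM in Gli3-/-, had all 6 members above 0 and none called. The part of these markers in the Dlx differences was not tested.

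**Figure D5:**
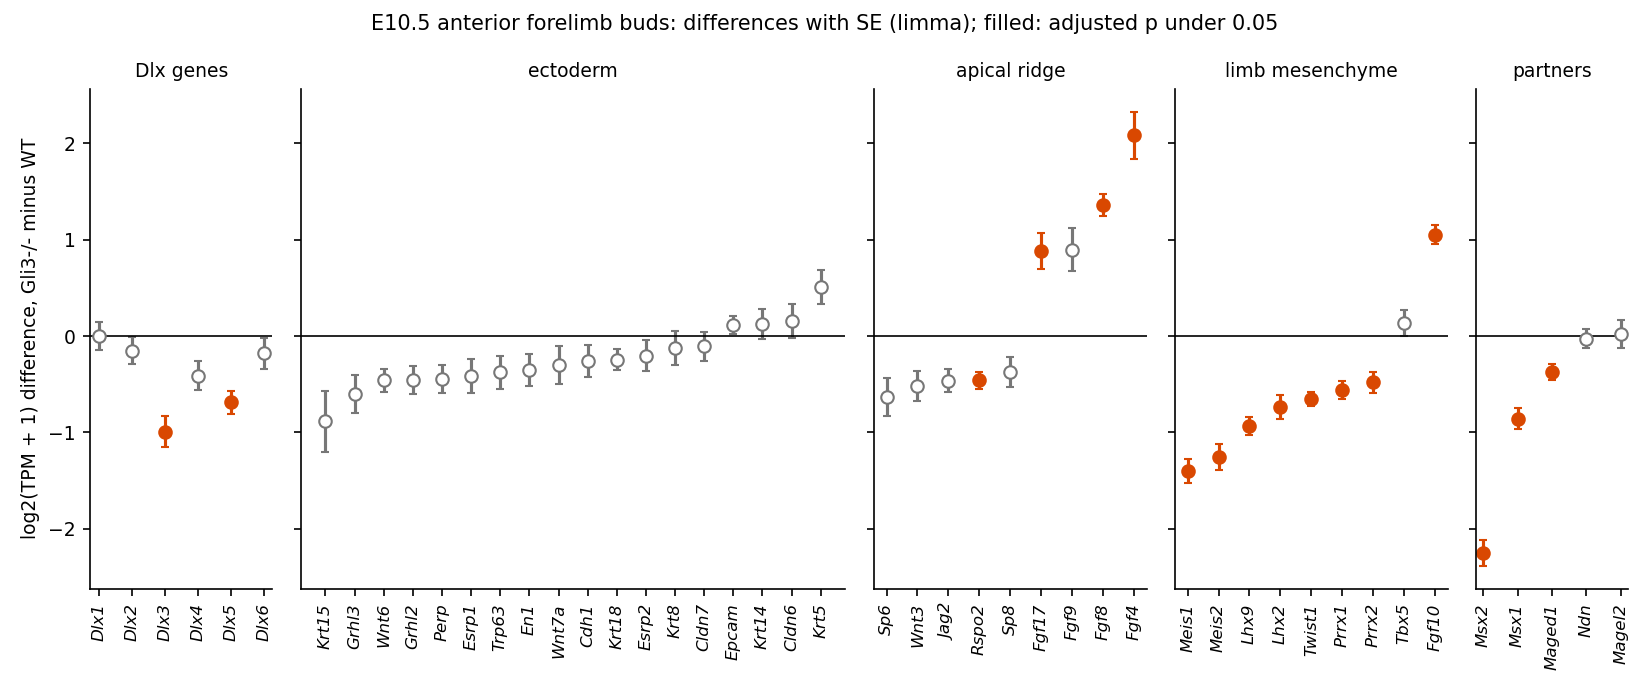
Differences in log2(TPM + 1) between E10.5 Gli3-/- and WT anterior buds (y axis) with SE from limma, for the 6 Dlx genes and for the lists of ectoderm, apical ridge, limb mesenchyme and partner genes (x axis, 1 point per gene). Filled points have a limma adjusted p under 0.05. None of the 18 ectoderm markers is called, 3 ridge Fgf genes are higher, and Msx2 and Msx1 are the lowest of the partners.

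Genes that act with or on the Dlx family gave further calls at E10.5. MSX homeodomain proteins form heterodimers with DLX proteins and oppose them, and the MAGE proteins, of which Maged1 is one, bind both. Of these 5 partner genes 3 fell and none rose. Msx2 fell most, from a mean of 39.7 to 7.53 TPM (log2 difference -2.25, SE 0.13, limma adjusted p = 7.36e-05). Msx1 went from 198.6 to 108.6 TPM (log2 difference -0.86, SE 0.11, limma adjusted p = 0.0027) and Maged1 from 464.8 to 358.5 TPM (log2 difference -0.37, SE 0.09, limma adjusted p = 0.0408). Msx2 alone of the 5 also passed the interaction (log2 difference -2.44, limma adjusted p = 0.000104).

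Of 11 signals and factors upstream of Dlx genes in ectoderm, 2 rose and 1 fell. Fgf10, the mesenchymal signal to the ridge, went from 12.2 to 26.2 TPM (log2 difference 1.05, limma adjusted p = 0.000643) and the BMP ligand Bmp2 from 1.59 to 4.02 TPM (0.95, 0.00998). Fgfr2, whose ectodermal form receives FGF10, went from 47.9 to 24.6 TPM (log2 difference -0.94, limma adjusted p = 0.00498). Bmp4, Bmp7, Bmpr1a and Ctnnb1 lay between -0.18 and 0.15 and did not pass. Of 6 genes known to lie downstream of DLX proteins in bone or brain, 2 were expressed enough to test at E10.5. Runx2, a bone master regulator, fell from 3.49 to 0.405 TPM (log2 difference -1.60, SE 0.28, limma adjusted p = 0.0126), but it entered the test only through the 4 WT libraries and did not pass with no filter (limma adjusted p = 0.0669). Sp7 did not pass (log2 difference -0.11, limma adjusted p = 0.73). At E9.25 none of the 15 partner and upstream genes tested was called, and none of the 6 downstream genes reached the minimum.

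Across the 14 libraries, after the mean of each group was subtracted, Dlx2, Dlx3 and Dlx5 went together. Pearson's r of log2(TPM + 1) was 0.90 for Dlx3 and Dlx5, 0.89 for Dlx2 and Dlx3 and 0.85 for Dlx2 and Dlx5, each from a different pair of neighbours. Dlx4 went with them less closely (r = 0.41 with Dlx2, 0.28 with Dlx3 and 0.46 with Dlx5), and not with Dlx1 (-0.01) or Dlx6 (-0.05). Dlx1 and Dlx6 lay between, with r from 0.53 to 0.78 with Dlx2, Dlx3 and Dlx5 (0.61 with each other). At E9.25 the libraries lowest for Dlx2, Dlx3 and Dlx5, WT replicate 2 and Gli3-/- replicate 1, also had the fewest reads of their groups, 38.1 and 39.2 M. At E10.5 this was so only in part. In WT, replicate 2 had the fewest reads (38.5 M) and the lowest Dlx2, but Dlx3 and Dlx5 were lowest in replicate 3 (48.6 M). In Gli3-/-, replicate 3 had the fewest reads (40.7 M) and the lowest Dlx3 and Dlx5, but Dlx2 was lowest in replicate 2 (43.3 M). The part of depth in these values was not tested. Among 16368 genes, those most like Dlx3 were Emx2 (r = 0.92), Agpat5 (0.91) and Dlx5 (0.90). Those most like Dlx5 were Champ1 (0.95), Grm4 (0.94) and Tti1 (0.93), and those most like Dlx2 were Bora (0.95), Lclat1 (0.94) and Gm15846 (0.92). Rnf149 (0.95) was most like Dlx4, Hpgds (0.93) most like Dlx1 and Gm3752 (0.94) most like Dlx6. These are the highest of very many correlations over 14 libraries that share depth and pooling, and are given as a description.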

How the data were processed

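RNA was extracted by the authors with TRIzol, made into libraries with the NEBNext Ultra II RNA kit, read on a NovaSeq and aligned with HISAT2, and the authors tested genes with DESeq2. The submitters' processing notes name mm10. The deposited tables give TPM and FPKM values of each gene, which the authors scaled per library, and no counts of reads, so none was modelled as counts. The tool that made these values, the annotation and the use of strand are not given in the sources used here. The deposited coverage signal served only to estimate reads per library.

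TPM of gene IDs on several lines was summed. log2(TPM + 1) was compared between groups by limma 3.58.1 (lmFit, eBayes with trend, two-sided; R 4.3.3) over genes with at least 1 TPM in at least 3 of the libraries compared, and p-values were adjusted by the Benjamini-Hochberg method over all of them, with a threshold of 0.05. A fit of 2 groups used their libraries alone, and the interaction used all 14. The procedure was tested on simulated data. The paper states that buds were pooled from several litters. Nothing states that the pools of a group came from separate litters, so that p-values measure the spread between these pools. Python 3.11.15 (NumPy 2.4.6, pandas 2.3.3, matplotlib 3.10.9, SciPy 1.17.1) served for the rest.

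Named were all members, other genes whose names begin with Dlx, Gli3, up to 4 neighbours and 4 genes per list in each comparison with the smallest adjusted p under the threshold, and the 3 genes most like each member. Members, lists and tests were chosen with earlier results of these data known. The alternatives tried were FPKM, median-of-ratios size factors, quantile normalization, 0.1 as pseudocount, a minimum of 5 TPM or none, no trend in eBayes, library quality weights, 1 model of all libraries, a replicate block, and each library left out in turn. Some marker genes are not reported here.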

Additional observations from a re-analysis of the deposited data

How the results depend on the processing

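Of 531 values of single members under other settings, 451 kept their direction and their side of the threshold, 21 newly passed, 23 no longer passed and 36 turned in sign. TPM rests on 20.7 to 29.3 reads per kilobase at 1 TPM, which limits Dlx4 and Dlx6 most. No member was called for Gli3 loss at E9.25 in any setting, although the count over all genes ran from 0 (no filter) to 1185 (1 model of all 14 libraries) beside 20. Over all genes the other counts ran from 164 (block by titles) to 1356 (weights) beside 747 for Gli3 loss at E10.5, from 138 to 1433 beside 348 for the interaction, from 2129 to 6520 beside 3853 for stage in Gli3-/- and from 4699 to 8556 beside 7520 for stage in WT, where the share called higher went from 78.3% to as low as 46.7% under another scaling. The cause was not tested.

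By the titles, same-numbered libraries did not all deviate together (r from -0.18 to 0.153 at E10.5, -0.199 to -0.161 at E9.25, -0.295 to 0.123 for stage in WT and -0.085 to 0.146 for stage in Gli3-/-), and by the numbers of the deposited tables r was 0.0522, 0.316 and 0.20 at E10.5, with a mean of -0.063 over the other 9 pairs. Since 1 of these 3 values lies under 0.1, and WT replicate 2 correlated better with another library than with its own number, the numbers were not taken as pairs. With the title number as a replicate block 1 member, Dlx3, was called for Gli3 loss at E10.5 and 0 for stage in WT, and with the number of the tables as a block 0 were called at E10.5 (adjusted p = 0.0546 for Dlx3 and 0.0618 for Dlx5, limma).

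For Gli3 loss at E10.5, 1 to 2 members were called with a library left out. For stage in WT, 0 were called with a filter at 5 TPM, which removes Dlx4, 4 with quantile normalization, 3 with median-of-ratios size factors, 3 with FPKM and 2 with sample quality weights, and 1 to 3 with a library left out. For stage in Gli3-/-, 2 were called with a filter at 5 TPM and 3 to 5 with a library left out, and quantile normalization moved the split of 2 higher and 3 lower to 0 and 4. For the interaction, 1 was called with eBayes without trend, 1 with sample quality weights and 0 to 1 with a library left out.

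Signs turned for members that were not called. For Gli3 loss at E9.25, quantile normalization gave -0.28, -0.22, -0.16 and -0.26 for Dlx2, Dlx3, Dlx4 and Dlx5, median-of-ratios size factors -0.21, -0.14, -0.0613 and -0.19, and FPKM -0.13, -0.0672, -0.0069 and -0.11. Sample quality weights gave -0.071, -0.0277 and -0.10 for Dlx2, Dlx4 and Dlx5, and the replicate block gave -0.0432 for Dlx2. With a library left out, the ranges were -0.14 to 0.21 for Dlx2, -0.0955 to 0.22 for Dlx3 and -0.13 to 0.15 for Dlx5. At E10.5 Dlx1 gave -0.0069 with FPKM and -0.0851 to 0.0737 with a library left out. For stage in WT, quantile normalization gave -0.15 for Dlx1 and -0.13 for Dlx6, and Dlx5 ran from -0.21 to 0.0639 with a library left out. For the interaction, Dlx2 gave 0.19 with quantile normalization and 0.09 with median-of-ratios size factors, and Dlx6 ran from -0.0878 to 0.30 with a library left out.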
